A study of Homo sapiens with 5 samples.

Results

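The G4 regions of chromosome 3 are the places on that chromosome where DNA folded into G-quadruplexes was recovered by BG4 chromatin immunoprecipitation (BG4 ChIP-seq) from C4-2 cells. The peaks deposited for 4 biological replicates were pooled, any that shared 1 bp or more were joined, and a merged region was kept as recurrent where at least 2 replicates had a peak in it. This gave 393 recurrent regions on chromosome 3 of 6835 in the whole series, of which 6543 lay on chromosomes 1 to 22, X and Y. C4-2 is an immortal line of human prostate cancer cells, and the labels give all 4 replicates as this line with no treatment named, so the data hold 1 condition. The comparisons are therefore between places on the chromosome, above all between the gene-dense interval 3p21, taken as 45 to 56 Mb (positions on GRCh37, also called hg19), and the rest of chromosome 3. The input library was not analysed here.

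A G-quadruplex (G4) is a four-stranded fold that guanine-rich DNA can take when runs of G pair in stacked planes. BG4 is an antibody fragment that binds this fold, and in human chromatin its signal is known to concentrate in open, transcribed, GC-rich DNA such as promoters. The 3p21 band is known for its many closely packed genes, among them RASSF1, SEMA3B and other genes long studied as tumour suppressors in epithelial cancers. No annotation of the build of the peaks was at hand, so genes are named only where the study's own list of gene windows named them.

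The sequences of a few promoters, of genes named at recurrent regions, are shown first, because runs of G can be read from the letters. From peaks that the paper calls recurrent in C4-2 cells, the study listed windows of genes whose G4 was absent from published profiles of the cell lines HepG2 and K562. Of these windows, 71 lay on chromosome 3. Of the 71 window genes, 52 had a promoter in the RefSeq table (GRCh38.p14; each entry runs from 250 bases before to 50 bases from the start of the transcript, which is base 251 of the entry). Printed are 5 entries whose window held a recurrent region and whose sequence held the G4 motif, 4 runs of at least 3 G (GGG) with loops of 1 to 7 bases of any kind between them. Both strands were searched, and the capitals mark the motif, with runs of C where it lay on the opposite strand. They were read from the gene's own strand, 5′ to 3′. USP13, a deubiquitinase gene, lies at chr3:179652790-179653089, plus strand. ZDHHC23, a palmitoyltransferase gene, lies at chr3:113947763-113948062, plus strand. PXK encodes a PX domain protein and lies at chr3:58333056-58333355, plus strand. SLC6A11 encodes a GABA transporter and lies at chr3:10815978-10816277, plus strand. CACNA2D2, which encodes an auxiliary subunit of voltage-gated calcium channels, lies in 3p21 at chr3:50503585-50503884, minus strand.
USP13: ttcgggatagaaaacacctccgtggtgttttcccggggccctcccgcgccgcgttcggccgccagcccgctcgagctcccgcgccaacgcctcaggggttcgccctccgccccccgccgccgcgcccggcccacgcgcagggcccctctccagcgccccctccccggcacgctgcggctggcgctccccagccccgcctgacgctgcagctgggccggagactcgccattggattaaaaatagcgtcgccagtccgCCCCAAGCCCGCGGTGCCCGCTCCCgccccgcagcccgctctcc
ZDHHC23: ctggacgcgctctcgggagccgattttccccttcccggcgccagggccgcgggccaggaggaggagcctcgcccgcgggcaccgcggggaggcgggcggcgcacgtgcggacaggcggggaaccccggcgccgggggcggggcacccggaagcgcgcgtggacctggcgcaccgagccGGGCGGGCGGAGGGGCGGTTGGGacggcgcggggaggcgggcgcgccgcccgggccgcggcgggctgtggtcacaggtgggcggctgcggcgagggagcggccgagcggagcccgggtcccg
PXK: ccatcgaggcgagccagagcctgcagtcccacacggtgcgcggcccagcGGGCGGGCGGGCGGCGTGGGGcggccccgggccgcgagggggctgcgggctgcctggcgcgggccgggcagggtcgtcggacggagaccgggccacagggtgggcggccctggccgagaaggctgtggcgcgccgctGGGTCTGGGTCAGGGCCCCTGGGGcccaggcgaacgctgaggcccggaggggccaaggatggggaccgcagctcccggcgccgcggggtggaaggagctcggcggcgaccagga
SLC6A11: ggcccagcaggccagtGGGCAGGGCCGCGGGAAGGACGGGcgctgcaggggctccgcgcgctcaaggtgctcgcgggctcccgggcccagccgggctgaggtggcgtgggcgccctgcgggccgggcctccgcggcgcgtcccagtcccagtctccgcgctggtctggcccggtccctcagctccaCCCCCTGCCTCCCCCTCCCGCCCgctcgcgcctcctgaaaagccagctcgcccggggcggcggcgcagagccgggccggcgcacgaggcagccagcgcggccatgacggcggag
CACNA2D2: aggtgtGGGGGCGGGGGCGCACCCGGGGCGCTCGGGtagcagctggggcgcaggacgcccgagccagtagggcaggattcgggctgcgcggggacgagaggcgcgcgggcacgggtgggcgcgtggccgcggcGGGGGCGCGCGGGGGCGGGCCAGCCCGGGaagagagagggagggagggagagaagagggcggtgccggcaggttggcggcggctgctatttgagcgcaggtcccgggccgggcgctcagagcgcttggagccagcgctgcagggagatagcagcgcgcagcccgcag
In USP13 the motif began 6 bases after the start of the transcript and lay on the opposite strand, whereas in ZDHHC23 it ran from 72 to 50 bases before the start on the gene's own strand. PXK, SLC6A11 and CACNA2D2 each held 2 such stretches. These positions are on another build than the peaks, and whether each entry is the start at the centre of the study's window was not tested. A match in letters is a description, not a measured G4.

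Chromosome 3 stood near the middle of the chromosomes for G4 regions. Its 393 recurrent regions came from 609 merged regions, a share of 64.5% against 63.1% over chromosomes 1 to 22, X and Y. It held 1.99 recurrent regions per Mb against 2.13 on the other chromosomes, which placed it 14 of 24 by density. A peak in all 4 replicates was seen in 166 of its 393 regions (42.2%, exact 95% interval 37.3 to 47.3), close to 41.4% over all those chromosomes. Within each replicate, the peaks per Mb on chromosome 3 were 0.927 ± 0.0343 times those elsewhere (SD, n = 4), below 1 in 4 of 4 replicates. An exact sign-flip permutation test over the 4 replicates gave p = 0.125 (two-sided), the smallest value that 4 replicates allow, so this test could not pass 0.05. The median fold enrichment of its peaks was 8.34, 7.70, 7.99 and 7.14 in replicates 1 to 4 and 8.38, 7.81, 7.98 and 7.23 elsewhere, a mean difference of -0.06 ± 0.05 (SD, n = 4; exact permutation p = 0.25) whose sign turned to 0.02 with at least 3 replicates per region and to 0.321 with means in place of medians. These p-values measure only the spread between the 4 replicates, and the intervals of counts and shares cover counting error only.

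The replicates differed in how many peaks were deposited. Replicates 1 to 4 had 8036, 6192, 6805 and 4427 peaks in all, of which 476, 339, 384 and 254 lay on chromosome 3. The deposited peaks carry no read totals, so the sequencing depth behind these numbers is unknown. Replicate 4 had the fewest peaks and replicate 1 the most, and the same order holds for what each contributed to the recurrent regions. Replicate 1 had a peak in 358 of the 393 regions, replicate 2 in 301, replicate 3 in 334 and replicate 4 in 234. Of the 109 regions with a peak in exactly 3 replicates, replicate 4 was the missing one in 69, replicate 2 in 25, replicate 1 in 8 and replicate 3 in 7.

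The 3p21 interval was the densest part of chromosome 3. It held 86 of the 393 recurrent regions in 11 Mb, or 7.82 per Mb (exact Poisson 95% interval 6.25 to 9.66), 4.76 times the density of the rest of the chromosome. In replicates 1 to 4 there were 102, 77, 84 and 62 peaks in 3p21, or 9.27, 7.0, 7.64 and 5.64 per Mb. Outside it the same replicates had 2.00, 1.40, 1.61 and 1.03 peaks per Mb, so the values of 3p21 and of the rest did not overlap. The share of a replicate's chromosome 3 peaks that lay in 3p21 was 22.6% ± 1.31 (SD, n = 4), from 21.4 to 24.4%. The density ratio within a replicate was 4.97 ± 0.377 (SD, n = 4; 4.63 to 5.49), above 1 in 4 of 4 replicates, with p = 0.125 in the exact permutation test.

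**Figure D1:**
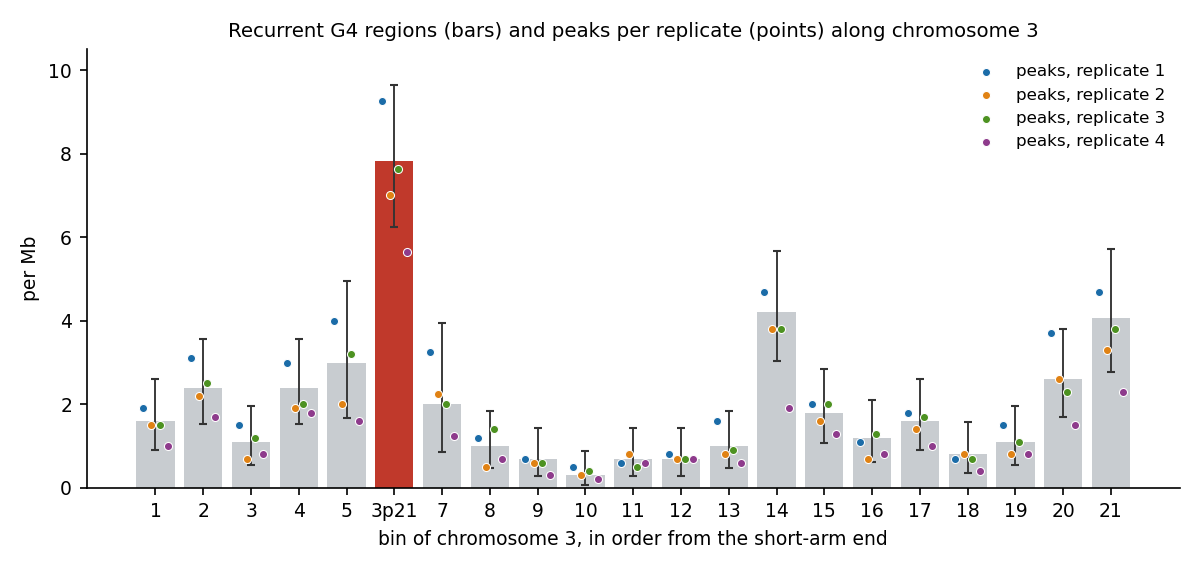
Recurrent G4 regions per Mb (bars, with exact Poisson 95% intervals) and peaks per Mb of each replicate (points) in 21 bins of chromosome 3 from the end of the short arm to the end of the long arm. The bar of 3p21 stands at 7.82 per Mb, and bins 14 and 21 follow at 4.20 and 4.06.

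The rest of the chromosome was cut into 20 bins, of 10 Mb except beside 3p21 and at the end of the long arm. Their densities ran from 0.300 to 4.20 recurrent regions per Mb, with a median of 1.40. The next densest was 120 to 130 Mb with 42 regions (4.20 per Mb, 3.03 to 5.68), followed by 190 Mb to the last peak with 32 regions (4.06 per Mb, 2.78 to 5.73). The intervals of these 2 bins overlapped each other and did not reach the interval of 3p21. They cover counting error only, and the bins were picked by their counts, so this was not a test between bins. Peaks per Mb in 3p21 were 1.97, 1.84, 2.01 and 2.97 times those of 120 to 130 Mb in replicates 1 to 4 (mean 2.198 ± 0.518, SD, n = 4; exact permutation p = 0.125). At 190 Mb to the last peak the replicates had 4.69, 3.298, 3.805 and 2.28 peaks per Mb, so in replicates 3 and 4 this bin came next after 3p21. Against each replicate's own next bin, a choice made after the data were seen, the ratios were 1.97, 1.84, 2.01 and 2.47. With bins of 5 Mb, 3p21 was taken as the 2 bins from 45 Mb on, and the runner-up was the short last bin, 195 to 197.9 Mb. The ratio to it over recurrent regions was 1.18 in place of 1.86, a comparison of stretches of unlike length. The sparsest bin was 80 to 90 Mb with 3 regions, and 5 of the 20 bins held fewer than 1 region per Mb. Both bins that border 3p21 were sparser, with 15 regions at 40 to 45 Mb (3.0 per Mb) and 8 at 56 to 60 Mb (2.0 per Mb).

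Within 3p21 the regions lay mostly between 47 and 53 Mb. These 6 Mb held 76 of the 86 regions, or 12.7 per Mb, and 41 of the 44 with a peak in all 4 replicates. Their edges follow the counts per 1 Mb given next, so these values describe that choice and are not a test. In steps of 1 Mb from 45 Mb, the counts were 3, 1, 10, 17, 18, 13, 4, 14, 6, 0 and 0. The step from 49 to 50 Mb was the fullest of the 198 steps of the chromosome, and 14 of its 18 regions had a peak in all 4 replicates. The step from 48 to 49 Mb was nearly as full with 17 regions, but 7 of these had a peak in all 4. Of the 10 fullest steps of the chromosome, 5 lay in 3p21, and the fullest elsewhere were 128 to 129 Mb with 11 regions and 9 to 10 Mb with 10. At the other extreme, 77 of the 198 steps (38.9%) held no recurrent region, among them the last 2 steps of 3p21 itself.

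**Figure D2:**
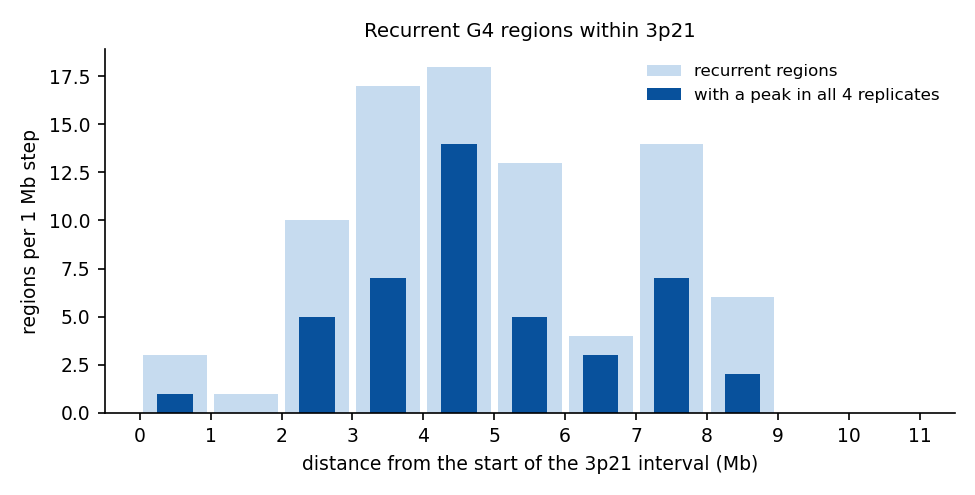
Recurrent G4 regions in each 1 Mb step of 3p21 (pale bars) and those with a peak in all 4 replicates (dark bars), against the distance in Mb from the start of the interval. Counts rise to 18 in the step 4 to 5 Mb from the start, dip to 4, reach 14 again and end with 2 empty steps.

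Regions were also closer together in 3p21 than elsewhere. Neighbouring recurrent regions were separated by a median of 52.6 kb where the midpoint of the gap lay in 3p21 and of 207 kb outside. A neighbour within 10 kb was found for 26 of 86 regions in 3p21 (30.2%, exact 95% interval 20.8 to 41.1) and for 32 of 307 outside (10.4%, 7.24 to 14.4), a difference of 19.8 percentage points (10.3 to 30.6). It was 13.1 points without replicate 3 and 12.9 points among regions with a peak in at least 3 replicates. Such neighbours formed 27 chains on the chromosome, 12 of them in 3p21. Most were pairs, and 4 chains had 3 regions. The chain in 3p21 at chr3:52007762-52017674 had 2 regions with a peak in all 4 replicates, while the other in 3p21, at chr3:48470444-48488365, had 0 of 3. The 2 outside were at chr3:42623255-42642409, with 2 of 3, and at chr3:193852573-193860023, with 1 of 3. A set that is denser has closer neighbours by construction, and spacing apart from density was not tested.

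The longest stretches without a recurrent region lay outside 3p21. The longest ran from 160473538 to 167452494, 6.98 Mb in which no replicate had a peak on its own either. The next were chr3:88108462-93698692 (5.59 Mb), which spans the centromere, and chr3:143691079-148709029 (5.02 Mb). A stretch of 4.48 Mb at chr3:61547418-66024379 held no recurrent region but 4 regions with a peak of 1 replicate. Of the 50 gaps of at least 1 Mb, 1 had its midpoint in 3p21, and this gap of 3.34 Mb ran on past the end of the interval. Without 3p21, the densities on either side of 90 Mb were close, with 1.49 regions per Mb from 0 to 90 Mb and 1.75 from 90 Mb to the last peak. Within these stretches the single bins were uneven, from 0.300 to 4.20 per Mb.

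Regions of 3p21 and of the rest of the chromosome were not clearly separated by replicate support. In 3p21, 44 regions were fully supported (all 4 replicates), 21 had a peak in 3 and 21 in 2. The share in all 4 was 51.2% (exact 95% interval 40.1 to 62.1) in 3p21 and 39.7% (34.2 to 45.5) outside, a difference of 11.4 percentage points whose interval ran from -0.361 to 23. With peaks of −log10 q of at least 4 alone the difference was 3.12 points, and without replicate 4 it was 6.61 points for regions with a peak in every remaining replicate. The share of a replicate's own peaks that fell in recurrent regions was 79.4, 93.5, 90.5 and 90.3% in 3p21 and 75.4, 88.5, 86.7 and 92.7% outside. It was higher in 3p21 in 3 of 4 replicates and lower in replicate 4, with a mean difference of 2.60 ± 3.36 points (SD, n = 4; exact permutation p = 0.25). Without replicate 4 this difference was 5.37 points. The density ratio of 3p21 to the rest over recurrent regions was 4.76 with at least 2 replicates, 5.26 with at least 3 and 6.13 with all 4.

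The 2 next densest bins had fewer regions with full support. At 120 to 130 Mb, 10 of 42 regions had a peak in all 4 replicates (23.8%, 12.1 to 39.5) and 19 had a peak in exactly 3. At 190 Mb to the last peak it was 10 of 32 (31.3%, 16.1 to 50.01). In both bins the share lay below that of the chromosome. The interval of the first did not reach that of 3p21, but these intervals cover counting error over regions only. The bins were picked by their density in these data, so this was not a test between bins. Among the 14 other bins with at least 10 regions, the share exceeded that of 3p21 in 1, 10 to 20 Mb, where 15 of 24 regions had a peak in all 4 (62.5%, 40.6 to 81.2). The intervals of 10 to 20 Mb and of 3p21 overlapped. Over all 21 bins, those with few regions included, 3p21 ranked 5 by this share.

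**Figure D3:**
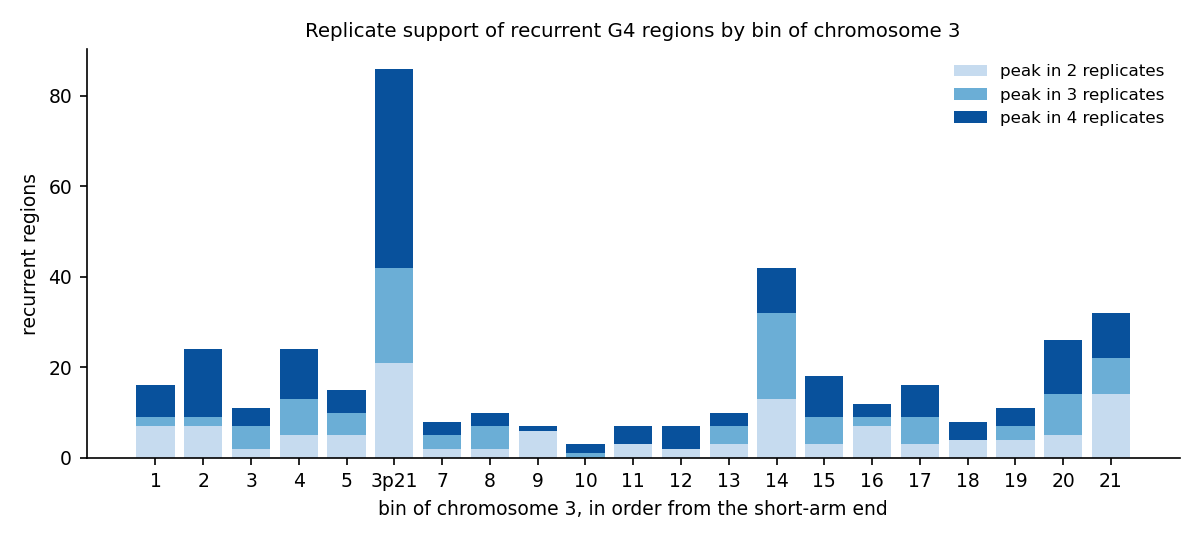
Number of recurrent G4 regions per bin of chromosome 3, split by how many replicates had a peak (2, 3 or 4, pale to dark). In 3p21 the part with all 4 replicates is 44 of 86, and in bin 14 (120 to 130 Mb) it is 10 of 42.

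Fold enrichment, the height of a peak's summit over the local background that the peak caller estimated, differed little between 3p21 and the rest. The median peak of replicates 1 to 4 stood at 8.67, 8.41, 8.50 and 7.31 in 3p21 and at 8.26, 7.47, 7.94 and 7.05 outside. The 4 differences were all positive and averaged 0.547 ± 0.292 (SD, n = 4; 0.267 to 0.945; exact permutation p = 0.125). This was smaller than the gap between replicates, since replicate 1 outside 3p21 stood above replicate 4 within it. Among fully supported regions (all 4 replicates) the difference shrank to 0.0810 (exact permutation p = 0.75), and with the mean in place of the median it was 0.202 (exact permutation p = 0.25). By median fold enrichment 3p21 ranked 8, 4, 6 and 9 of 21 bins in replicates 1 to 4, whereas by peaks per Mb it ranked first in each.

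Peak width did not separate 3p21 from the rest. Median widths in replicates 1 to 4 were 424, 442.5, 400 and 404.5 bp in 3p21 and 392.5, 424, 417 and 369 bp outside. The peaks were wider in 3p21 in 3 of 4 replicates and narrower in replicate 3. The mean difference was 17.1 ± 23.9 bp (SD, n = 4; -17.0 to 35.5; exact permutation p = 0.25). It was 6.17 bp without replicate 1 and 37.8 bp without replicate 3.

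**Figure D4:**
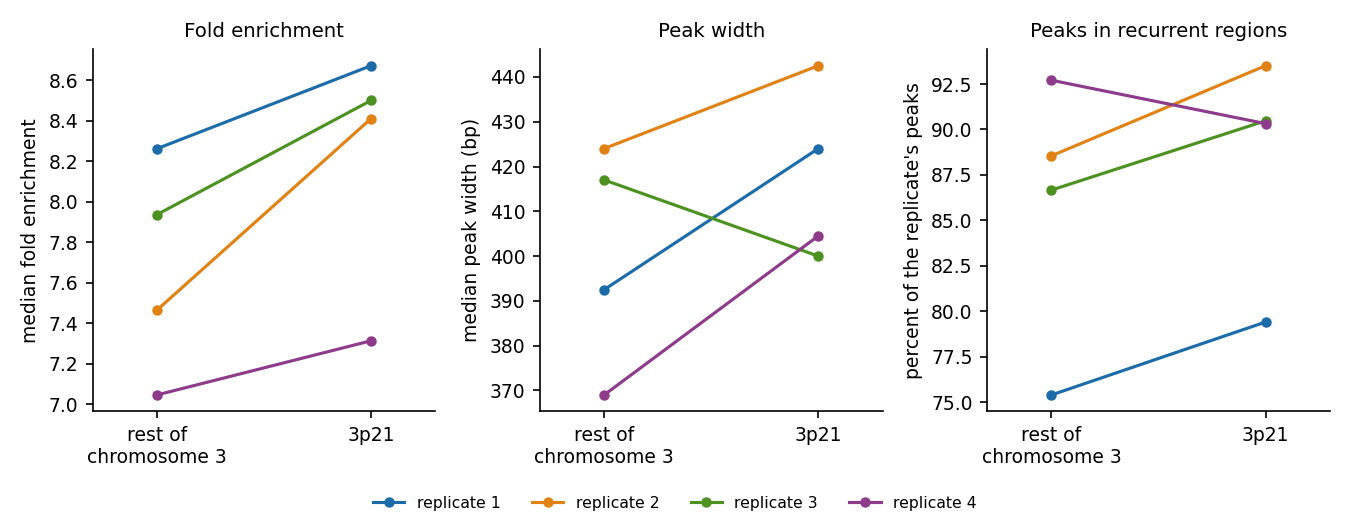
Median fold enrichment, median peak width in bp, and percent of peaks in recurrent regions, for the rest of chromosome 3 and for 3p21, with 1 line per replicate (n = 4). The lines for fold enrichment all rise, while replicate 3 falls in width and replicate 4 falls in the percent of peaks in recurrent regions.

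Support, width and height moved together over the merged regions of the chromosome. The median of the mean fold enrichment was 5.64 for regions with a peak of 1 replicate, 6.56 with 2, 7.04 with 3 and 9.31 with 4. Regions of 1 replicate, the ones just outside the rule, had a median width of 298 bp, and those of 2 replicates, just inside it, 420.5 bp. With 3 replicates the median width was 484 bp and with 4 it was 635.5 bp, where a merged region spans the outer edges of its peaks and so grows with their number. The median of the highest −log10 q rose from 4.69 to 7.59, 9.88 and 17.7 over the same order. Because each region was kept for its number of peaks, these are descriptions of the rule and not tests.

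The 166 fully supported regions gave 4 readings per site. Between pairs of replicates, Pearson's r of their fold enrichment was 0.830 to 0.858 over 166 regions on the linear scale, where a few high sites weigh most, and 0.736 to 0.792 on the log2 scale. The regions share their sequence and the peak caller and are not independent samples. The 4 readings of a region had a median coefficient of variation of 21.5% (1.28 to 48.1). Replicate 1 gave the highest reading in 75 regions and replicate 4 in 12, while replicate 4 gave the lowest in 94. Summits lay close together, with a median SD of 44.1 bp between replicates and an SD within 50 bp in 95 of 166 regions (57.2%). In 9 regions the summits had an SD above 200 bp. The median SD was 44.2 bp in 3p21 and 44.1 bp outside.

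Most of the strongest G4 sites of chromosome 3 lay outside 3p21, as did most of the regions they were ranked among. Ordered by mean fold enrichment over the 4 replicates, 2 of the first 10 were in 3p21, and the leading 7 were elsewhere. Of all 166 fully supported regions, from which these were taken, 44 were in 3p21. Whether the 2 shares differ was not tested. What genes lie at these sites was not analysed here. Whether any of them lies in duplicated sequence, where reads of near-identical copies could add to the height, was not tested, and their fold enrichments and ranks carry that limit.

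The strongest region was chr3:129829993-129831209, 1217 bp wide, with fold enrichments of 36.6, 33.6, 52.1 and 28.8 in replicates 1 to 4 (mean 37.8 ± 10.04, SD). The second was chr3:125634492-125635580, with 38.7, 38.1, 38.3 and 27.9 (35.8 ± 5.24). Their readings overlapped, so their order was not resolved, and both lay in the bin 120 to 130 Mb, the runner-up in density. Among the 2710 fully supported regions on chromosomes 1 to 22, X and Y, they ranked 3 and 5. The third region of chromosome 3 came next at rank 26.

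The third region, chr3:98620439-98621094, had 30.2, 34.2, 29.7 and 19.6 (28.4 ± 6.21), and the fourth, chr3:75483910-75485248, had 23.2, 33.2, 31.5 and 21.1 (27.2 ± 6.02). The fourth was also the widest recurrent region of the chromosome, at 1339 bp. Both lay in bins with 7 recurrent regions in 10 Mb. The next 3 places were close in height. At chr3:43663378-43664053 the values were 32.5, 25.1, 26.5 and 23.2 (26.8 ± 4.0), and at chr3:133291991-133292711 they were 28.4, 25.2, 27.2 and 26.2 (26.8 ± 1.39). At chr3:38178407-38178998 they were 27.8, 25.9, 29.3 and 21.9 (26.2 ± 3.18). These 3 regions differed by less than the spread between their replicates.

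The strongest region of 3p21 came eighth, at chr3:50273041-50273744, with 26.2, 24.3, 32.0 and 21.7 (26.1 ± 4.39). It was 1 of a pair of regions within 9.08 kb, both with a peak in all 4 replicates. The tenth, chr3:50336707-50337294, had 27.2, 21.1, 23.9 and 18.5 (22.7 ± 3.73), and it too had a recurrent neighbour, within a span of 7.51 kb. The ninth, outside 3p21 at chr3:66551034-66551838, was the steadiest of these, with 24.2, 22.7, 22.5 and 22.8 (23.1 ± 0.768). In 8 of the 10 strongest regions replicate 4 gave the lowest reading.

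Further down the order, regions of 3p21 were mixed with those of the rest. A mean of at least 20 was reached by 13 regions, 3 of them in 3p21, and a mean of at least 15 by 33 regions, 9 of them in 3p21. Of the 166 regions ranked, 44 were in 3p21. The third of 3p21 was chr3:48593994-48594909, with 22.6, 21.8, 20.7 and 16.4 (20.4 ± 2.75). It was followed by chr3:50374674-50375269, with 22.1, 14.5, 20.02 and 15.5 (18.0 ± 3.62), and by chr3:52091092-52091781, with 23.9, 16, 18.8 and 12.5 (17.8 ± 4.83). Over all fully supported regions of chromosome 3, the median of the mean fold enrichment was 9.41 in 3p21 and 9.27 outside.

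**Figure D5:**
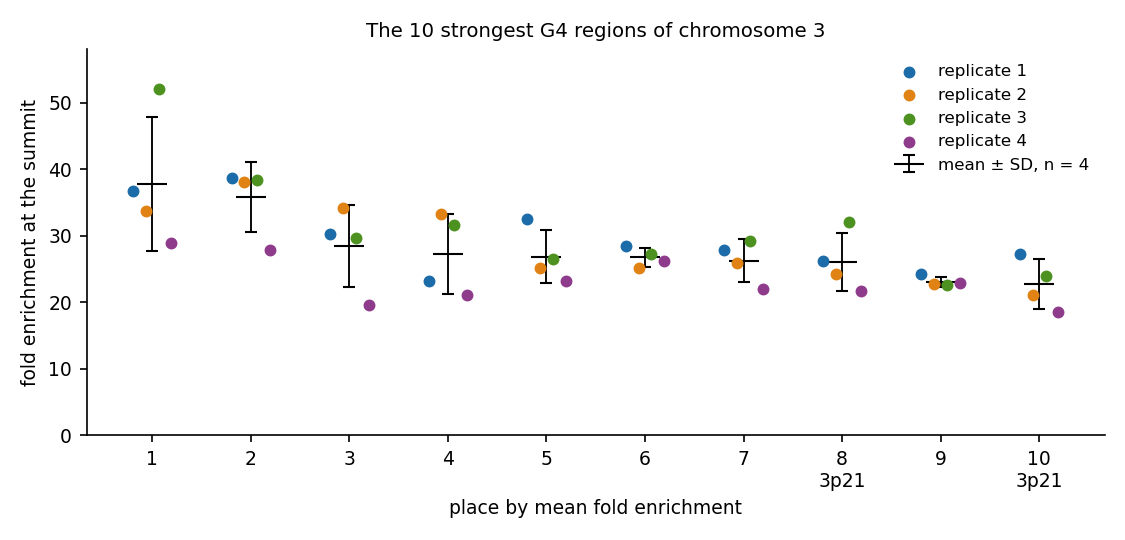
Fold enrichment at the summit in each replicate (points) for the 10 strongest G4 regions of chromosome 3, ordered by mean, with the mean ± SD (n = 4) in black. Places 8 and 10 are in 3p21, and replicate 4 is the lowest point in 8 of the 10.

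Recurrent regions in the study's gene windows stood below the other recurrent regions in median fold enrichment. Each of the 71 windows on chromosome 3 held at least 1 peak. A region recurrent by the rule used here was found in 34 of them (47.9%), where 64.5% of all merged regions of the chromosome were recurrent. A further 37 had peaks of 1 replicate alone. The paper calls the C4-2 peaks behind its list recurrent but does not say in how many replicates. How these 37 windows came to be listed was not tested. A set of 4 windows had a region with a peak in all 4 replicates, 15 had one of 3 and 15 had one of 2. The 34 windows held 29 different recurrent regions, 7.38% of the 393, because some windows of neighbouring genes overlap. Full support was found for 4 of these 29, against 166 of the 393. The median of the mean fold enrichment was 6.70 for these 29 and 7.66 for the other recurrent regions. The part of the lower support in this gap was not tested.

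The 4 windows with full support belonged to genes of different roles. USP13, the deubiquitinase gene printed above, had 7.19, 6.78, 9.64 and 5.58 in replicates 1 to 4 in a region (chr3:179370318-179370943) that covered the centre of its window. CADM2, which encodes a cell adhesion molecule of neurons, had 7.71, 7.28, 5.98 and 6.20 at chr3:85007907-85008385, also over the centre, in the sparsest bin of the chromosome. SHISA5, a gene of 3p21 known as a p53 target in apoptosis, had 7.57, 6.79, 8.55 and 6.18 at chr3:48540080-48540764, with the near edge 1495 bp from the centre of its window. Another recurrent region of this window, chr3:48541422-48541781, lay nearer the centre, with 8.67 and 8.13 in replicates 1 and 3 only. The fourth, AC090505.4, listed by a clone name, stood higher at 14.6, 11.7, 7.61 and 11.4 (chr3:194489767-194490409). All 4 were far below the 10 strongest regions.

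In 3p21 there were 13 windows, and 6 of them held a recurrent region, a share of 46.2% against 48.3% of 58 outside. Besides SHISA5, 3 had a region with a peak in 3 replicates. CDCP1, which encodes a transmembrane glycoprotein, had 6.42, 6.33 and 7.34 in replicates 1 to 3 and no peak in replicate 4. C3orf62 had 9.58 and 12.5 in replicates 1 and 2 and 7.85 in replicate 4. CACNA2D2 had 6.75, 7.61 and 6.82 in replicates 2 to 4, at chr3:50540932-50541327. The absent replicate was a different one in each of the 3.

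With a peak in 2 replicates there were SFMBT1, a gene for a chromatin protein of the Polycomb group (5.39 and 6.60 in replicates 1 and 2), and PRKCD, the gene of protein kinase C delta (6.38 and 7.09 in replicates 2 and 3). The other 7 windows of 3p21 had a peak of 1 replicate, among them KLHDC8B with 6.09 in replicate 1 and ALS2CL with 5.02 in replicate 3. EXOSC7, a subunit of the RNA exosome, and ZDHHC3, a palmitoyltransferase gene, shared a peak of 4.96 in replicate 1. ACTR8, a subunit of the INO80 chromatin remodeller, and AC012467.1 shared a peak of 6.12 in replicate 2.

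Outside 3p21 the highest window region with named genes was that of ZDHHC23, shared with a gene listed by a clone name, with 12.6, 14.3 and 7.97 in replicates 1, 2 and 4 (chr3:113666408-113667096). Of the other printed genes, PXK had 4.42, 5.33 and 5.31 in replicates 1 to 3, and SLC6A11 had 5.32 and 7.06 in replicates 1 and 2. The window of MECOM, which encodes a zinc finger transcription factor, had 6.08 and 6.65 in replicates 1 and 3. MTRNR2L12 and RPL18AP8 shared a region seen in replicates 3 and 4 (5.97 and 8.62), where reads of near-identical copies elsewhere could be counted, so it is uncertain.

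The G4 motif was present in the RefSeq promoters of 13 of the 26 window genes with a recurrent region that could be matched (50%, exact 95% interval 29.9 to 70.1). It was present in the same share, 13 of 26, of the matched genes whose window had a peak of 1 replicate alone. Over all genes of the table the share was 27.9% (7619 of 27305), over the genes of chromosome 3 it was 24.8% (409 of 1652), and over single promoters it was 25% (8778 of 35116). A gene with several promoters was counted where any of them held the motif. Genes with more promoters so had more chances to be counted, and the groups were not matched for this. Whether the promoter with the motif lies at the gene's window was not tested. Window genes that face each other, such as ARHGEF26 and ARHGEF26-AS1, can share the same stretch of sequence, so they are not independent.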

How the data were processed

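BG4 chromatin immunoprecipitation libraries of 4 biological replicates of C4-2 cells were deposited by the authors as 1 peak list per replicate. The submitters' processing notes name bcl2fastq 1.8.4, Bowtie2 2.2.5, SAMtools 1.11, MACS2 2.1.1 and the build hg19, whereas the methods of the study name hg38. The last deposited peak of chromosome 1 ends at 249201060, past the end of that chromosome in hg38, so positions were read as GRCh37 (hg19). Each peak carries, as deposited, a fold enrichment (a linear ratio over the local background), −log10 p-value and −log10 q-value columns, a score that was not used, and a summit. The lowest −log10 q of each list was between 1.30 and 1.35, which is a q-value limit of 0.05. The treatment of duplicate reads and the control library given to the caller are not given in the sources used here, and read totals were not analysed here, so depth is unknown.

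Peaks of any replicate that shared 1 bp or more were joined, and a peak counted once per replicate. A region belonged to a bin by its midpoint. Medians were taken within each replicate, and the 4 differences or log ratios were tested by an exact two-sided sign-flip permutation, with a smallest possible p of 0.125. Shares have exact binomial (Clopper-Pearson) and densities exact Poisson intervals, and differences of shares have Newcombe intervals, all at 95%. No test was made over regions, which are not replicates. The reference at hand was hg38, so peaks were given no gene or sequence from it, and promoters were matched to the study's gene windows by symbol or RefSeq synonym and strand, not by position.

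The regions and lists were chosen with earlier results of these data known. Values per replicate are given for the 10 strongest regions supported by all 4 replicates, the 5 strongest in 3p21, and the window genes of 3p21 or with full support. PXK, SLC6A11, ZDHHC23, MECOM and MTRNR2L12 were added after their values were seen. Alternatives were each replicate left out, support by 3 or more or by all 4 replicates, joining only peaks that shared 50% of the shorter, −log10 q of at least 4, other bins, means for medians, and −log10 p for fold enrichment. Calculations used Python 3.11.15 with numpy 2.4.6, pandas 2.3.3 and scipy 1.17.1, and figures used matplotlib 3.10.9. The scripts were tested on simulated peaks.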

Additional observations from a re-analysis of the deposited data

Results flagged for a closer look

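In 43 sets of 4 replicate values, the highest or lowest replicate was compared with its nearest neighbour, as a share of the whole range of the 4. In 3 of the 43 that share passed Dixon's 95% limit, which chance alone passes in about 1 of 20 independent sets. The 43 sets are not independent, since some hold the same peak counts in another unit, so 1 of 20 is only a rough guide. In each of the 3 the replicate that stood apart was replicate 4, the one with the fewest peaks. The ratio of the peak density of 3p21 to that of 120 to 130 Mb had a gap of 0.851 of its range, since it was 2.97 in replicate 4 and at most 2.01 in the others. Against each replicate's own next densest bin, replicate 4 stood at 2.47 and the gap was 0.737 of the range, within the limit. The difference between 3p21 and the rest of the chromosome in the share of peaks that lay in recurrent regions had a gap of 0.844, with -2.39 points in replicate 4 and at least 3.81 in the others. The fold enrichment of the second strongest region, chr3:125634492-125635580, had a gap of 0.939, with 27.9 in replicate 4 and 38.1 to 38.7 in the others.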

How the results depend on the processing

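Of 102 alternative values over 13 results, 97 were counted as unchanged. For differences and ratios tested over replicates this means the same direction and the same side of 0.05, which the exact test cannot pass, so their sizes could still move, as the difference in median fold enrichment did from 0.547 to 0.0810 among regions of all 4 replicates. For shares it means a value within the 95% interval, and for counts one within 1.5 times. Asking for a peak in all 4 replicates left 166 regions on chromosome 3 in place of 393. A neighbour distance of 50 kb raised the difference between 3p21 and the rest to 41.0 percentage points. Loops of up to 12 bases raised the share with a G4 motif to 76.9% of the window genes with a recurrent region (20 of 26) and to 61.5% of those with a peak of 1 replicate (16 of 26), against 40.6% of all genes. The difference in median fold enrichment between chromosome 3 and the other chromosomes reversed to 0.0207 with at least 3 replicates per region and to 0.321 with means in place of medians. The density ratio of 3p21 to the rest ran from 3.65 to 6.13 over its alternatives. The lowest came with a plain grid of 10 Mb bins that puts 3p21 in 2 of them. The highest came when only regions of all 4 replicates were counted. Its ratio to the next densest bin ran from 1.18 to 2.67. That next bin was 190 Mb to the last peak without replicate 1, and 10 to 20 Mb when only regions of all 4 replicates were counted. At least 9 of the 10 strongest regions stayed among the first 10 in each alternative tried for them. For these results the cause of the changes was not tested. There is 1 group of 4 replicates, so no pairing between groups of samples existed. Parts of the genome were compared as pairs within each replicate, and merged regions over all replicates. With 4 replicates the exact sign-flip test cannot pass 0.05, and with no read totals a region without a peak cannot be told from one that was sequenced too little.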
